A study of Homo sapiens and Mus musculus with 213 samples.

Results

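The 10 genes described here make serine, pass its carbon on to folate or carry serine and its relatives into the cell: PHGDH, PSAT1, PSPH, SHMT1, SHMT2, MTHFD1, MTHFD2, ALDH1L2, SLC1A4 and SLC1A5. They were chosen by name, with earlier results of these data known, and found by their Ensembl identifier among 58336 listed genes. All 10 were among the 20884 tested genes, those whose normalized count averaged at least 10 over the 9 libraries. Gene expression was measured by RNA-seq of poly(A) RNA in HEK293T, a transformed human embryonic kidney line, with 3 libraries in each of 3 lines. MYC WT carries the native G-quadruplex (G4) motif, a guanine-rich stretch that can fold into a four-stranded structure, at the promoter of MYC. MYC MUT carries point mutations in the guanine runs that prevent folding. In SWP the motif was replaced by a different G4-forming sequence from another promoter. Both edited lines were CRISPR-made and homozygous, the labels name no treatment for any of the 3, and each line appears under 1 name with replicates 1 to 3. The sample titles mark the replicates with "Bio" and the number. The labels do not say which clone was sequenced or whether the replicates were separate cultures, so p-values measure the spread between these libraries.

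Serine is built from the glycolytic intermediate 3-phosphoglycerate in 3 steps, catalysed by PHGDH, PSAT1 and PSPH in that order. SHMT1 in the cytosol and SHMT2 in mitochondria then split serine into glycine and a carbon unit held by tetrahydrofolate. MTHFD2 and ALDH1L2 oxidise that unit in mitochondria, MTHFD1 handles it in the cytosol, and the cell spends it on purines, thymidylate and methyl groups. SLC1A4 and SLC1A5 are neutral amino acid exchangers of the plasma membrane, the first known for serine and alanine and the second for glutamine. MYC, a transcription factor of growing cells, and ATF4, the transcription factor of the amino acid response, are both known to act on genes of this pathway.

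Each library held 65024354 to 98497026 reads on genes. The least abundant of the 10 genes, SLC1A4, had at least 985 normalized counts in every library, so counting error was small beside the spread between libraries. Libraries of a line differed by more than sampling noise, with a chi-square per degree of freedom of 8.32 to 55.6. The headers of the 3 MYC WT columns carry a tag that the other 6 lack, and what that tag stands for cannot be told apart from the difference between MYC WT and the edited lines. Of 10 markers of embryonic kidney lines, 9 had a mean of at least 10 in each line, and their summed normalized count was 84176 to 95102 in MYC WT, 88876 to 100481 in MYC MUT and 73268 to 83096 in SWP. Against MYC WT, KRT8, LHX1, NEFL and PAX2 were called higher and NEFM lower in MYC MUT, and KRT8 and NEFL lower in SWP. The summed count of 7 fibroblast markers was 1266 to 1513 in MYC WT, 2075 to 2180 in MYC MUT and 890 to 1348 in SWP, with COL1A1 called higher and COL3A1 lower in MYC MUT, LUM higher and COL3A1 lower in SWP, and COL1A2 at 0 in 8 of 9 libraries. That of 5 immune cell markers was 88.2 to 102 in MYC WT, 121 to 145 in MYC MUT and 81.7 to 90.0 in SWP, with CD14 called higher in MYC MUT and CD3E at 0 in 7 of 9 libraries. A mean of at least 10 was reached in each line by only 5 of the 7 fibroblast markers and 2 of the 5 immune cell markers. The part of these differences in the results was not tested. MYC itself had 20020, 28396 and 21580 normalized counts in MYC WT, 10693, 11176 and 12400 in MYC MUT and 14480, 24743 and 25245 in SWP. All 3 MYC MUT libraries were below all other libraries, with a log2 fold change of -1.02 ± 0.19 (SE) against MYC WT (adjusted p = 0.00182, limma).

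On hg38, with the GENCODE annotation, PHGDH (ENSG00000092621) lies at chr1:119648411-119744218, PSAT1 (ENSG00000135069) at chr9:78297125-78330093 and PSPH (ENSG00000146733) at chr7:56011051-56051604. SHMT1 (ENSG00000176974) lies at chr17:18327860-18363563, SHMT2 (ENSG00000182199) at chr12:57229573-57234935, MTHFD1 (ENSG00000100714) at chr14:64388031-64463457, MTHFD2 (ENSG00000065911) at chr2:74186172-74217565 and ALDH1L2 (ENSG00000136010) at chr12:105019784-105107643. The carriers SLC1A4 (ENSG00000115902) and SLC1A5 (ENSG00000105281) lie at chr2:64988477-65023865 and chr19:46774883-46788594. SHMT2 shares a chromosome with ALDH1L2 and MTHFD2 with SLC1A4, and none of the 10 lies on the chromosome of MYC.

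The promoters of these genes were read for the letters of 2 motifs, because MYC is known to bind the E-box CACGTG and ATF4, paired with a C/EBP protein, the composite element TGATGNAA. RefSeq start sites on GRCh38.p14 gave 10 windows of 250 bases before to 50 after a start, for 7 of the 10 genes; PSPH, SHMT2 and ALDH1L2 were without an entry. Both strands were searched, and no stretch matched both motifs. The E-box stood in 2 windows (MTHFD1 and the second of 3 starts of SLC1A5) and the composite element in 2 (the second of 2 starts of SLC1A4 and the third of SLC1A5). Of all 35116 windows, 7.26% held the E-box and 3.62% the composite element. The 4 matches are shown here as 30 bases each, 5′ to 3′ on the strand of the gene, with the motif in capitals (in SLC1A4 it is the reverse complement).
MTHFD1 E-box: ccagtccctaagCACGTGggttgggttgtc
SLC1A5 E-box: ggcgggagtggtCACGTGgacaggacgggg
SLC1A5 composite element: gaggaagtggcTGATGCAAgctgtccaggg
SLC1A4 composite element: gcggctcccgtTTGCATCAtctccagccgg
They lie at chr14:64388326-64388355 (+), chr19:46787326-46787355 (-), chr19:46784893-46784922 (-) and chr2:64989381-64989410 (+), and their motifs begin 15, 50, 97 and 7 bases before the start. Of the 30 bases shown, 30, 17, 13 and 12 fall in an annotated UTR of some transcript of the gene. PHGDH, PSAT1, SHMT1 and MTHFD2 had neither string in their windows, which says only that these letters are not there.

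The first question was how the 10 genes differed in the line whose promoter G4 cannot fold. Against MYC WT, MYC MUT had lower levels of 6 of the 10 genes: the serine synthesis enzymes PHGDH, PSAT1 and PSPH, the mitochondrial enzymes MTHFD2 and ALDH1L2, and the carrier SLC1A5. A gene was called where the Benjamini-Hochberg adjusted p over all tested genes was under 0.05 and the log2 fold change beyond 0.5 (limma). By the same rule 10.1% of all tested genes were called lower and 11.3% higher, and none of the 10 was called higher by limma, edgeR or DESeq2, with 1 (SHMT1) above 0 at an unadjusted p under 0.05. Their median log2 fold change was -0.83, beside -0.00338 over all tested genes. In 7 of the 10 all MYC MUT libraries lay below all MYC WT libraries and in 1 above, beside 26.4% and 25.9% of all tested genes. Because the 10 genes were chosen with earlier results of these data known, these shares describe them and are not a test. RNA-seq of a whole culture cannot tell fewer cells with a transcript from less of it in each cell.

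PHGDH, which oxidises 3-phosphoglycerate and commits it to serine, had 46170, 70942 and 69235 normalized counts in MYC WT, 24373, 30013 and 35775 in MYC MUT and 46295, 59968 and 66837 in SWP. The MYC MUT libraries were below all 6 others, and those of MYC WT and SWP overlapped. The mean of MYC MUT was 48.4% of MYC WT, with a log2 fold change of -1.04 ± 0.19 (SE, n = 3 in each line; adjusted p = 0.00136, limma), and this call was kept in all 22 alternative fits. The 121 tested genes within 10 Mb of PHGDH had a median log2 difference of -0.25 in the same comparison, and the part of this in the fall of PHGDH was not tested.

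PSAT1, the aminotransferase of the second step, had 26014, 47455 and 46518 normalized counts in MYC WT, 17759, 22996 and 25941 in MYC MUT and 23719, 36493 and 36792 in SWP. MYC MUT lay just below MYC WT, whose replicate 1 was close to the highest MYC MUT library. The log2 fold change was -0.81 ± 0.24 (SE; adjusted p = 0.0197, limma), and it was the least firm of the 6 calls: without MYC WT replicate 2 or 3, or MYC MUT replicate 1, the adjusted p was 0.0783, 0.0854 and 0.0830, and with all 9 libraries but no trend it was 0.0527. PSPH, the phosphatase that releases serine, had 3777, 6180 and 6868 normalized counts in MYC WT, 2549, 3116 and 3474 in MYC MUT and 3589, 4718 and 4969 in SWP. Its 3 MYC MUT libraries were below all 6 others. The mean of MYC MUT was 54.3% of MYC WT, with a log2 fold change of -0.85 ± 0.21 (SE; adjusted p = 0.00751, limma).

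Reads of PSAT1 and its processed pseudogenes can be placed on either copy. The summed count of 4 annotated copies was 25.3% to 27.6% of that of PSAT1 in every library, most of it on PSAT1P3 (mean 8391 in MYC WT, 5001 in MYC MUT and 7134 in SWP), and the copies had log2 fold changes like the parent's, -0.72 for PSAT1P3 and -0.74 for PSAT1P4 in MYC MUT against MYC WT. For MTHFD2, 7 copies held 8.62% to 10.0% of the parent's count, for SHMT1 1 copy held 11.3% to 13.0%, and for MTHFD1 the copy MTHFD1P1 held 36.0% to 40.2%. The copy PSPHP1 held at most 0.0312% of the count of PSPH. With the counts of the copies added to the parent, the calls of the 10 genes were the same in all 3 comparisons.

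**Figure D1:**
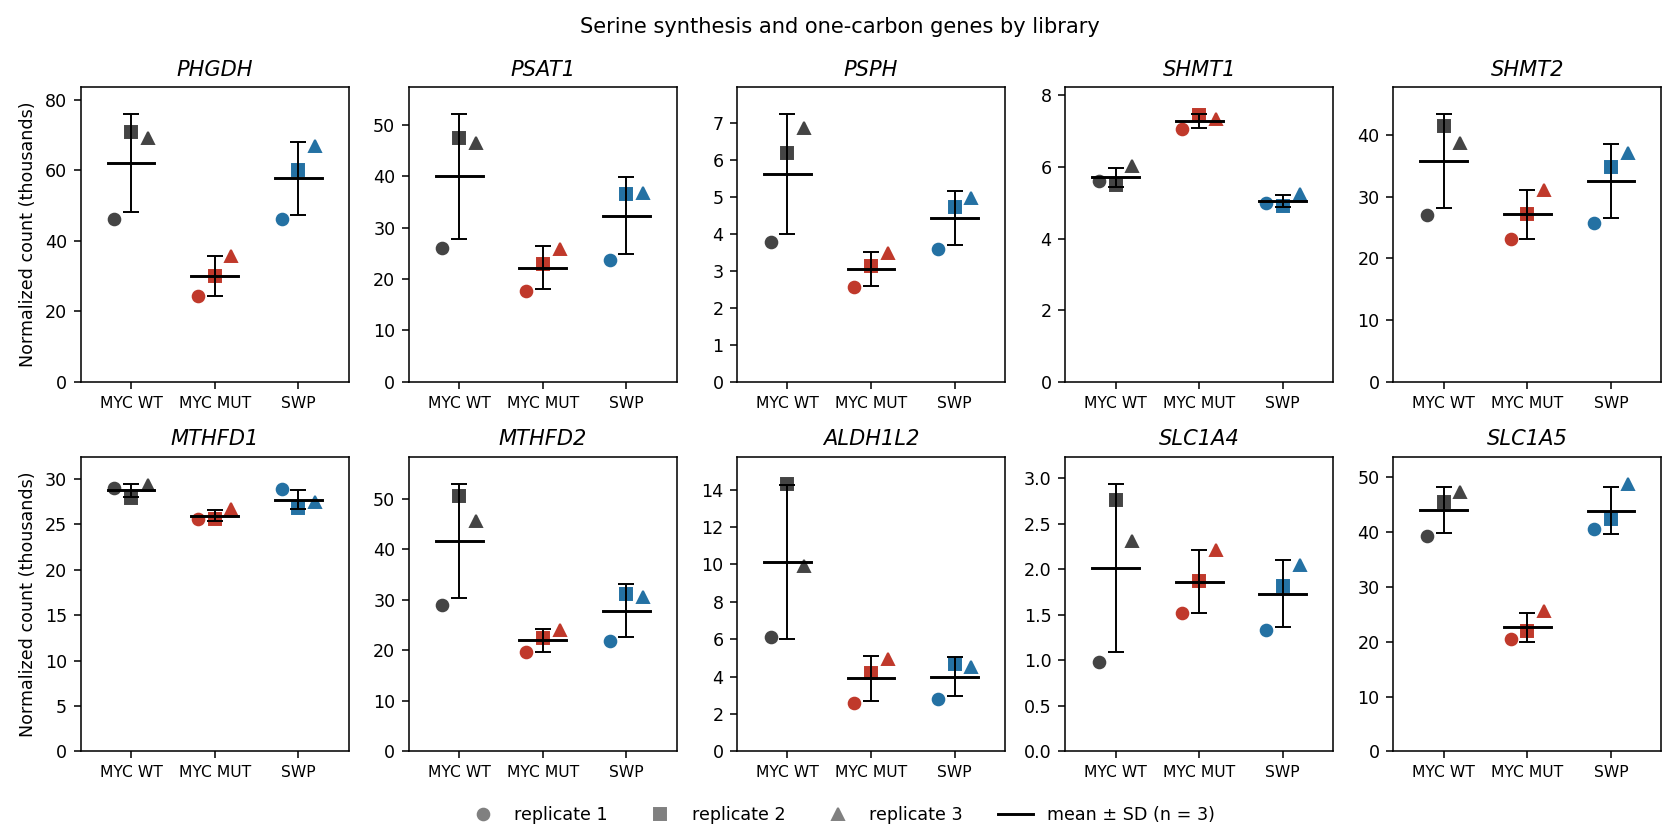
Normalized count (linear axes from 0, in the unit on the axis label, each gene on its own scale) of each of the 10 genes in the 9 libraries; marker shape gives the replicate number, colour the line, and the bars the mean ± SD of 3 libraries. In PHGDH, PSPH and SLC1A5 every MYC MUT library (24373 to 35775 for PHGDH) sits below every MYC WT and SWP library, in ALDH1L2 both edited lines sit below MYC WT, and in SHMT1 MYC MUT sits above both.

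The next genes split serine and move its carbon. SHMT2, the mitochondrial serine hydroxymethyltransferase, had 27077, 41475 and 38687 normalized counts in MYC WT, 23180, 27162 and 31144 in MYC MUT and 25721, 34827 and 37061 in SWP. The 3 lines overlapped, and the log2 fold change of -0.38 in MYC MUT (95% interval -0.77 to 0.00) had an adjusted p of 0.108 (limma). Without MYC WT replicate 1 it was called lower. SHMT1, its cytosolic counterpart, had 5613, 5508 and 6018 normalized counts in MYC WT, 7061, 7439 and 7339 in MYC MUT and 4980, 4917 and 5243 in SWP. The 3 lines did not overlap in SHMT1: MYC MUT was highest and SWP lowest. Its log2 fold change in MYC MUT against MYC WT, 0.35 ± 0.06 (SE; adjusted p = 0.00117, limma), was below the size needed for a call.

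SHMT1 shares bases with SMCR8, a gene on the opposite strand, and the use of strand in the counting is not given in the sources used here. SMCR8 had mean normalized counts of 4346 in MYC WT, 7244 in MYC MUT and 4131 in SWP, a log2 difference of 0.74 in MYC MUT against MYC WT and of 0.82 against SWP. The part of these reads in the values of SHMT1 was not tested. ALDH1L2 likewise overlaps NOPCHAP1 and WASHC4, whose log2 differences in MYC MUT against MYC WT were -0.03 and -0.33. The mean normalized counts of WASHC4 were 4520 in MYC WT, 3607 in MYC MUT and 4884 in SWP, and those of NOPCHAP1 1267, 1234 and 1346. The part of their reads in the values of ALDH1L2 was not tested. MTHFD1 overlaps ZBTB25, with -0.50, and 2 lncRNAs with means of at most 40.5 normalized counts. SHMT2 and MTHFD2 overlap tested genes on the opposite strand whose means in MYC WT were at most 52.3 normalized counts, and PHGDH, PSAT1, PSPH and SLC1A4 overlap none.

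MTHFD2, the mitochondrial dehydrogenase and cyclohydrolase known for its high level in dividing cells, had 28896, 50523 and 45533 normalized counts in MYC WT, 19583, 22356 and 23979 in MYC MUT and 21883, 31196 and 30469 in SWP. MYC MUT was below MYC WT without overlap, and SWP overlapped both. The log2 fold change in MYC MUT against MYC WT was -0.89 ± 0.19 (SE; adjusted p = 0.00406, limma). MTHFD1, the cytosolic enzyme that joins 3 folate reactions in 1 protein, had 28978, 27885 and 29280 normalized counts in MYC WT, 25569, 25557 and 26615 in MYC MUT and 28820, 26788 and 27463 in SWP. MYC MUT lay below the other lines, but by little: its mean was 90.2% of MYC WT, and the log2 fold change of -0.15 ± 0.06 (SE) had an adjusted p of 0.0653 (limma).

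ALDH1L2, which oxidises the mitochondrial formyl unit to carbon dioxide, fell most in log2 fold change of the 10 genes. It had 6099, 14320 and 9920 normalized counts in MYC WT, 2585, 4190 and 4960 in MYC MUT and 2791, 4703 and 4514 in SWP. All 6 libraries of the edited lines were below all 3 of MYC WT. The log2 fold change in MYC MUT was -1.34 ± 0.31 (SE; adjusted p = 0.00616, limma), a mean of 38.7% of MYC WT. Its MYC WT libraries spread more than those of most of the 10 genes, with an SD of 40.7% of the mean.

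The 2 carriers differed from each other. SLC1A5 had 39308, 45365 and 47239 normalized counts in MYC WT, 20462, 21871 and 25591 in MYC MUT and 40604, 42299 and 48794 in SWP. The MYC MUT libraries were below all 6 others by a gap wider than the range of any line. The log2 fold change was -0.96 ± 0.10 (SE; adjusted p = 4.44e-05, limma), the smallest adjusted p of the 10 genes in this comparison. SLC1A4 had 985, 2758 and 2307 normalized counts in MYC WT, 1520, 1865 and 2205 in MYC MUT and 1331, 1815 and 2047 in SWP. The 3 lines overlapped, the adjusted p was 0.998 in MYC MUT against MYC WT (limma), and the 95% interval of the log2 fold change, -0.70 to 0.69, was too wide to place it.

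For single genes an exact two-sided permutation test of 3 against 3 libraries cannot give a p below 0.1, and it gave 0.1 in MYC MUT against MYC WT for the 6 called genes, SHMT1 and MTHFD1, 0.3 for SHMT2 and 1.0 for SLC1A4.

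**Figure D2:**
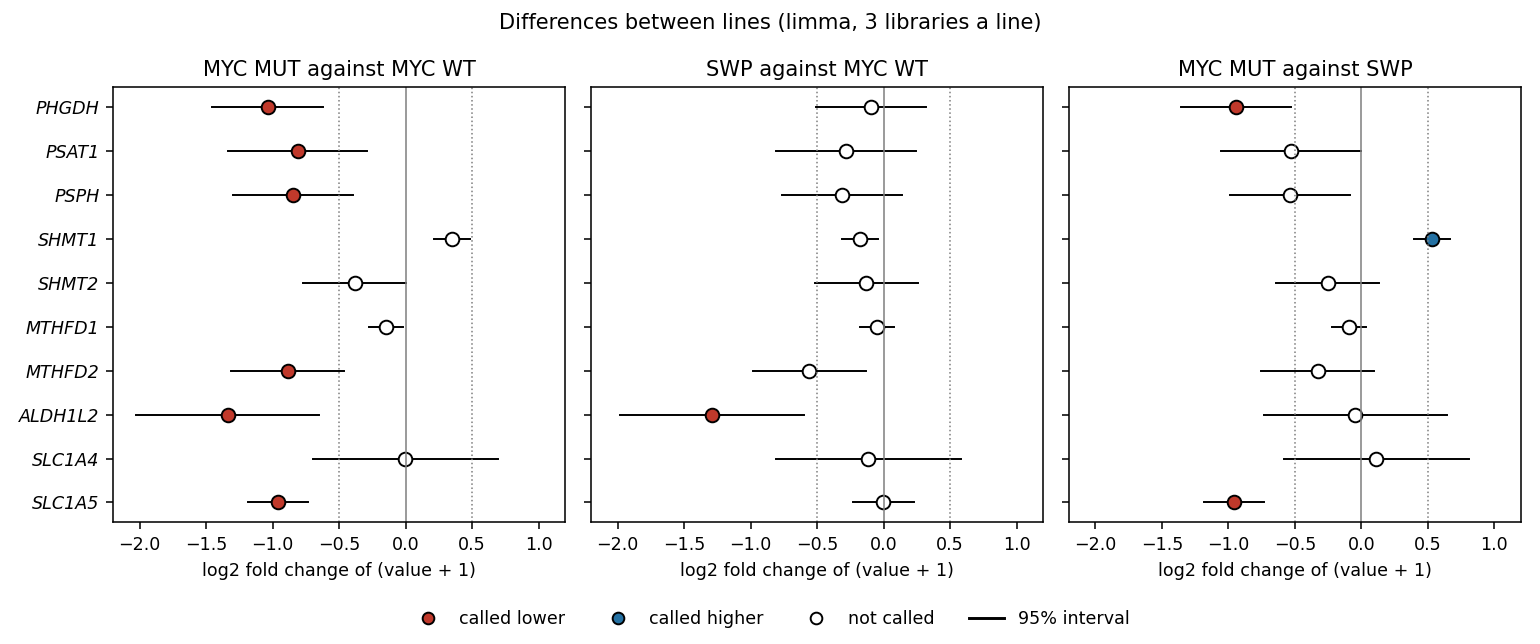
Log2 fold change of (normalized count + 1) with its 95% interval for the 10 genes in the 3 comparisons (limma, 3 libraries in each line); filled points were called and dotted lines mark a log2 fold change of -0.5 and 0.5. MYC MUT has 6 filled points against MYC WT, SWP has 1 (ALDH1L2, -1.29), and MYC MUT against SWP has 3 (PHGDH, SHMT1 and SLC1A5).

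The second question was how the same genes differed in the line with the exchanged G4. In SWP against MYC WT 1 of the 10, ALDH1L2, was called lower and none higher, beside 2.98% and 2.15% of all tested genes; edgeR and DESeq2 called none higher either, and at an unadjusted p under 0.05 limma had 3 lower and 0 higher. The median log2 fold change of the 10 was -0.15, beside -0.06 over all tested genes. All SWP libraries lay below all MYC WT libraries in 2 of the 10 (ALDH1L2 and SHMT1) and above in none, beside 15.5% and 9.1% of all tested genes. ALDH1L2 had a log2 fold change of -1.29 ± 0.31 (SE; adjusted p = 0.0242, limma), but without MYC WT replicate 2 or 3 its adjusted p was 0.0844 and 0.0865. The 166 tested genes within 10 Mb of ALDH1L2 had a median log2 difference of 0.31 in this comparison.

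PHGDH and SLC1A5 differed from MYC WT by -0.10 and -0.0025 in log2, with 95% intervals of -0.51 to 0.32 and -0.23 to 0.23. PSAT1 and PSPH had log2 fold changes of -0.28 and -0.31 and adjusted p-values of 0.533 and 0.409 (limma). MTHFD2, at -0.56 ± 0.19 (SE), had an adjusted p of 0.0982. Same-numbered libraries of SWP and MYC WT deviated from their line means together, with r of 0.555, 0.403 and 0.102. The third pair was not distinct: MYC WT 2 with SWP 3 reached 0.263 and MYC WT 3 with SWP 2 reached 0.166. With the replicate number as a block MTHFD2 was called lower too (adjusted p = 0.000958, limma). That made 2 of the 10 genes, beside 4.18% of all tested genes called lower with the block. MYC MUT and SWP share their MYC WT controls, so the direct comparison of the 2 edited lines is the one that tests whether they differ.

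In MYC MUT against SWP, PHGDH and SLC1A5 were lower and SHMT1 was higher, 3 of the 10 genes, where 8.31% of all tested genes were called lower and 12.3% higher. PHGDH had a log2 fold change of -0.94 ± 0.19 (SE; adjusted p = 0.00244, limma) and a mean of 52.1% of SWP. SLC1A5 had -0.96 ± 0.10 (adjusted p = 3.87e-05) and a mean of 51.6% of SWP. SHMT1 had 0.53 ± 0.06 (adjusted p = 7.16e-05) and a mean of 144% of SWP, but its log2 fold change of 0.4963 by edgeR and 0.4921 by DESeq2 fell short of the size for a call. The 149 tested genes within 10 Mb of SHMT1 had a median log2 difference of 0.35, whose part was not tested.

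All MYC MUT libraries lay below all SWP libraries in 4 of the 10 genes and above in 1, beside 23.0% and 29.2% of all tested genes. PSPH (-0.54 ± 0.21, SE; adjusted p = 0.0602) and PSAT1 (-0.53 ± 0.24; adjusted p = 0.103) were not called by limma. Same-numbered libraries of these lines deviated together with r of 0.333, 0.241 and 0.232. With the replicate number as a block PSPH (adjusted p = 0.000209, limma) and PSAT1 (adjusted p = 0.000128) were called lower. That made 4 lower, beside 9.29% of all tested genes, and 1 higher. For ALDH1L2 the 2 edited lines were not told apart, with a log2 difference of -0.05 and a 95% interval of -0.74 to 0.64. MTHFD2 lay between, with -0.33 and an interval of -0.75 to 0.10.

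A second pattern ran through the replicates. In 8 of the 10 genes, all except SHMT1 and MTHFD1, replicate 1 was the lowest library in each of the 3 lines, as it was for 17.0% of all tested genes. In ALDH1L2 replicate 1 was at 50.3%, 56.5% and 60.6% of the mean of replicates 2 and 3 in MYC WT, MYC MUT and SWP. In PSAT1 it was at 55.4%, 72.6% and 64.7%, and in SLC1A5 at 84.9%, 86.2% and 89.1%. SLC1A4 in MYC WT was furthest down, at 38.9%, whereas SHMT1 and MTHFD1 stayed within 95.6% and 106% in every line. ATF4 and MYC also had replicate 1 as the lowest library in each line, ATF4 at 69.5%, 79.6% and 72.3% and MYC at 80.1%, 90.7% and 57.9%. Replicate 1 was the lowest library in MYC WT for 38.8% of all tested genes, in MYC MUT for 34.8% and in SWP for 41.9%. The titles give the number after "Bio", and what libraries of the same number share is not in the labels.

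With replicate 1 of all 3 lines left out, an alternative added after the data were seen, the same 6 genes were called lower in MYC MUT against MYC WT, beside 11.9% of all tested genes. In SWP against MYC WT 2 were called lower (ALDH1L2 and MTHFD2), beside 3.51%. In MYC MUT against SWP 4 were called lower (PHGDH, PSAT1, PSPH and SLC1A5) and SHMT1 higher, beside 9.76% and 13.1%.

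**Figure D3:**
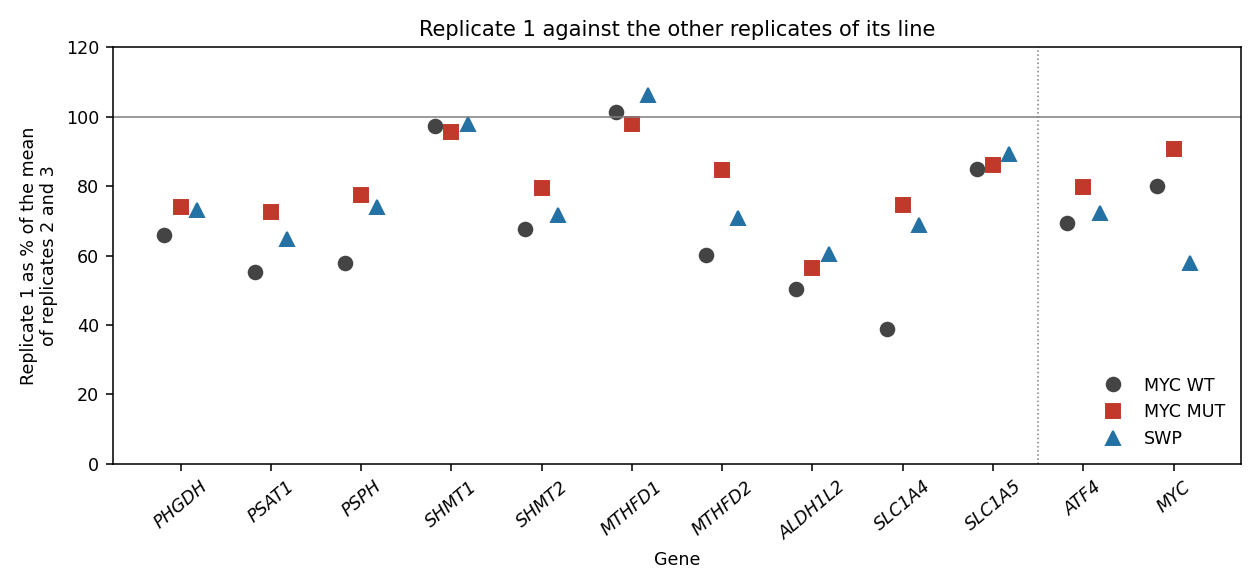
Normalized count of replicate 1 as a percentage of the mean of replicates 2 and 3 of its line, for the 10 genes and, right of the dotted line, for ATF4 and MYC; the grey line marks 100%. SHMT1 and MTHFD1 stay near the line, and the other 8 genes lie below it in all 3 lines, from 38.9% for SLC1A4 in MYC WT to 89.1% for SLC1A5 in SWP.

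Levels of different genes were compared as normalized counts per kb of the canonical transcript. In MYC WT PHGDH was highest, at 33288 ± 7414 per kb (SD, n = 3), followed by PSAT1, SHMT2 and SLC1A5 at 18130, 16572 and 15257, whose ranges over the libraries overlapped. MTHFD2 and MTHFD1 came next, at 9460 and 9104, and could not be told apart by their spread. PSPH and SHMT1 (2841 and 2261) overlapped as well, ALDH1L2 had 1362, below SHMT1 without overlap, and SLC1A4 was lowest at 442, below all others. In MYC MUT the order was PHGDH (16106), SHMT2 (12593), PSAT1 (10078), MTHFD1 (8216) and SLC1A5 (7856), and each of these overlapped the next. SHMT1 (2881) stood above PSPH (1543) without overlap there, and ALDH1L2 (527) overlapped SLC1A4 (408). In SWP PHGDH (30922) was followed by SLC1A5, SHMT2 and PSAT1, at 15232, 15084 and 14658, which overlapped. This order depends on the length used: per kb of all annotated exons, PSAT1 was highest in MYC WT and PHGDH came after SLC1A5 and SHMT2 too, because PHGDH has 1866 bases in its canonical transcript and 9187 in all exons. By that length MTHFD2 (3640) and MTHFD1 (1654) did not overlap in MYC WT.

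The balance of related genes was taken within each library as a ratio of counts per kb. The size of such a ratio depends on the lengths used, here those of the canonical transcripts, while the relative difference between lines does not. Counts of pseudogene copies were not added. For SHMT2 to SHMT1, mitochondrial to cytosolic, the ratio was 5.65, 8.82 and 7.53 in MYC WT, 3.85, 4.28 and 4.97 in MYC MUT and 6.05, 8.30 and 8.28 in SWP. MYC MUT was below both other lines without overlap (exact permutation p = 0.1 in each comparison, the smallest it allows), and MYC WT and SWP overlapped. For MTHFD2 to MTHFD1 the ratio was 0.714, 1.30 and 1.11 in MYC WT, 0.549, 0.627 and 0.645 in MYC MUT and 0.544, 0.834 and 0.795 in SWP. MYC MUT was below MYC WT, and SWP overlapped both. For SLC1A5 to SLC1A4 the ratio was 63.2, 26.0 and 32.4 in MYC WT, 21.3, 18.6 and 18.4 in MYC MUT and 48.3, 36.9 and 37.7 in SWP, so that MYC MUT was again below both.

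**Figure D4:**
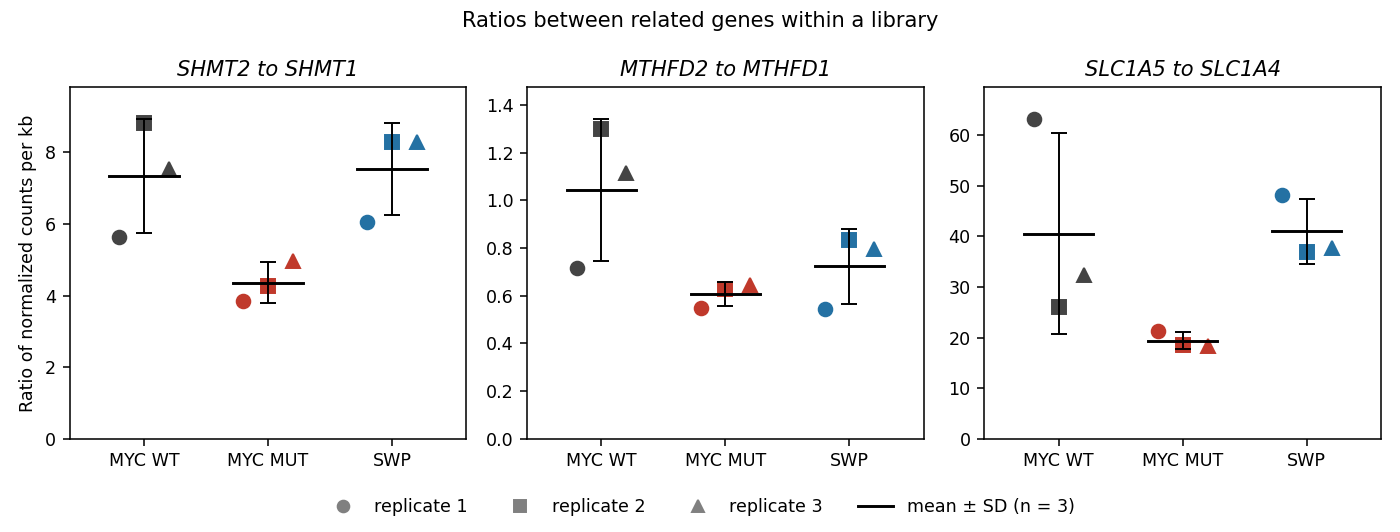
Ratio of normalized counts per kb of canonical transcript between related genes in each library (linear axes from 0), with the mean ± SD of 3 libraries. The MYC MUT libraries lie below those of both other lines for SHMT2 to SHMT1 (3.85 to 4.97) and for SLC1A5 to SLC1A4 (18.4 to 21.3), and below MYC WT for MTHFD2 to MTHFD1.

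Ratios were also taken between the steps of serine synthesis. The ratio of PSAT1 to PSPH was 6.36 ± 0.44 (SD) in MYC WT, 6.51 ± 0.24 in MYC MUT and 6.49 ± 0.52 in SWP, and the 3 lines overlapped. The ratio of PHGDH to PSAT1 was 1.88 ± 0.19 in MYC WT, 1.60 ± 0.05 in MYC MUT and 2.13 ± 0.18 in SWP. For this ratio all MYC MUT libraries were below all others (exact permutation p = 0.1 against each), and MYC WT and SWP overlapped. The ratio of PHGDH to PSPH was 12.9, 12.1 and 10.7 in MYC WT, 10.1, 10.2 and 10.9 in MYC MUT and 13.6, 13.4 and 14.2 in SWP, so that SWP was above both other lines without overlap (exact permutation p = 0.1 against each), and MYC WT and MYC MUT overlapped.

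The likeness of other genes was measured by Pearson's r of log2(normalized count + 1) over the 9 libraries, among 16868 genes with a mean of at least 50. These libraries share 3 lines and the replicate pattern above, so r describes a common profile. Most like PHGDH were MITF (0.994), SLC25A5P5 (0.993), the pseudogene ENSG00000240376 (0.989), CPSF4 (0.989) and YARS1 (0.988). Most like PSAT1 were its own copies PSAT1P4 (0.996) and PSAT1P3 (0.995), then EIF4EBP1 (0.994), PCK2 (0.991) and GPT2 (0.989). Most like PSPH were LMO4 (0.994), ATF4P4 (0.988), MARS1 (0.987), PSAT1 (0.986) and XBP1 (0.985).

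The transcription factors known for these genes were described from a list of 7. Counts of this and the following lists stand beside 10.1% of all tested genes called lower and 11.3% higher in MYC MUT against MYC WT. In SWP against MYC WT these shares were 2.98% and 2.15%, and in MYC MUT against SWP they were 8.31% and 12.3%. In MYC MUT against MYC WT 2 of 7 were called lower, MYC and ATF4, and none higher by limma, edgeR or DESeq2, with 2 lower and 2 higher at an unadjusted p under 0.05. MYCN and ATF5 had log2 fold changes of 0.98 and 0.65 there, with all MYC MUT libraries above all MYC WT libraries, and adjusted p-values of 0.101 and 0.126 (limma). In MYC MUT against SWP, MYCN was called higher, with the largest log2 fold change of the list (1.95), and ATF4 and MYC were called lower. ATF4 had 47284, 66471 and 69677 normalized counts in MYC WT, 32758, 39481 and 42782 in MYC MUT and 46471, 62765 and 65726 in SWP. MYC MUT was below all 6 others, with a log2 fold change of -0.66 ± 0.17 (SE; adjusted p = 0.00900, limma), while SWP differed from MYC WT by -0.06 in log2. None of the 7 was called in SWP against MYC WT by limma, edgeR or DESeq2, with 2 lower and 0 higher at an unadjusted p under 0.05. Of 8 further genes of the amino acid response outside the pathway, 2 were called lower in MYC MUT by limma (DDIT4, an inhibitor of mTORC1 signalling, by -2.15 in log2 and SESN2, a leucine sensor, by -1.003) and none in SWP, where 1 was lower at an unadjusted p under 0.05 and edgeR and DESeq2 called none. In MYC MUT DESeq2 also called 2 lower and edgeR 3, with ASNS in addition, and the median of the 8 was -0.92. ASNS, asparagine synthetase, at -1.06 (adjusted p = 0.0703), and CHAC1, which degrades glutathione, at -1.67 (adjusted p = 0.141), were not called by limma, and their replicate 1 in MYC WT was at 36.6% and 14.6% of the mean of the other 2. In MYC MUT against SWP, DDIT4 and SESN2 were again the 2 of 8 called lower by limma, and none was called higher.

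**Figure D5:**
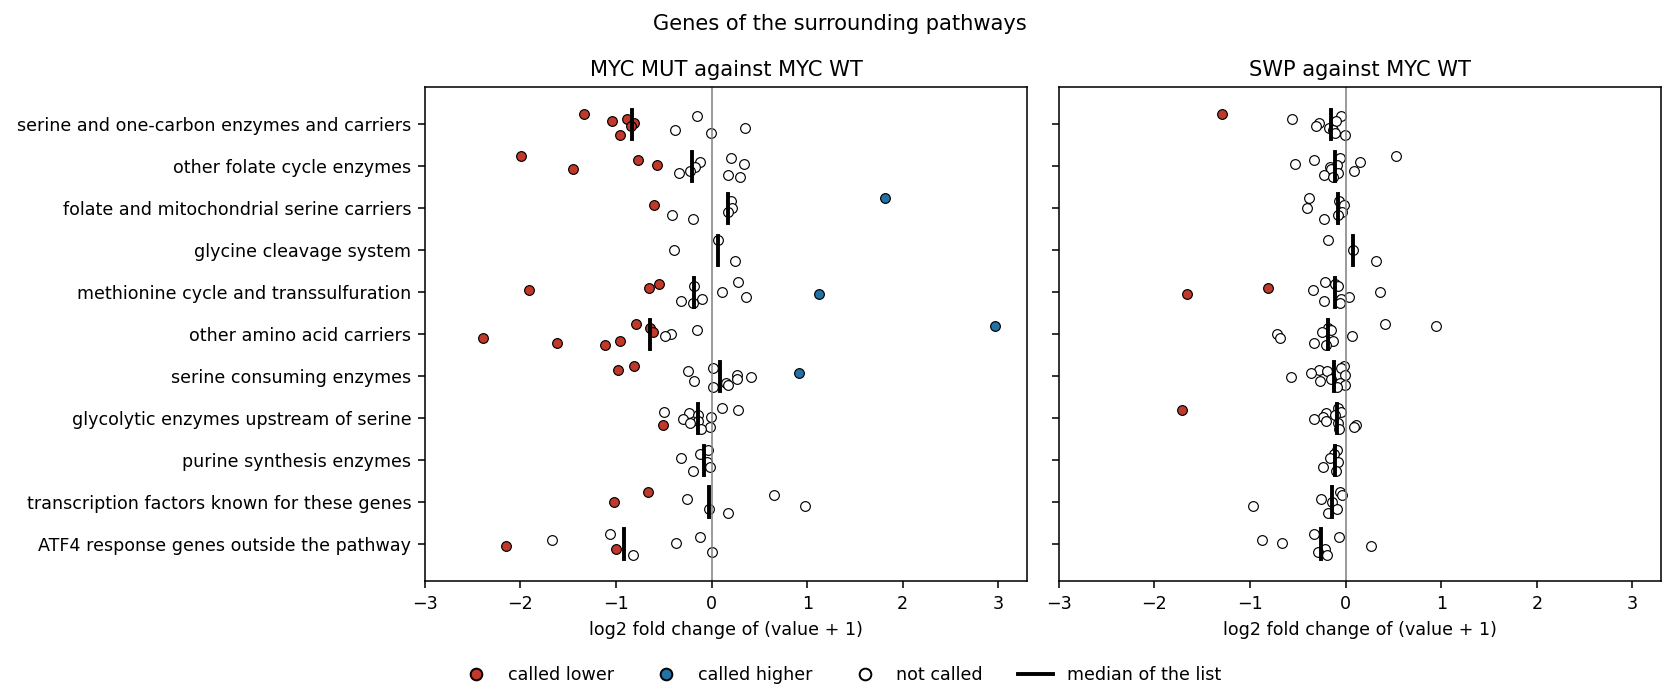
Log2 fold change of (normalized count + 1) of each tested gene of the 10 genes and of 10 surrounding lists in MYC MUT and in SWP against MYC WT; filled points were called (red lower, blue higher) and black bars mark the median of a list. The medians of the 10 genes (-0.83), other amino acid carriers (-0.64) and amino acid response genes (-0.92) lie furthest to the left in MYC MUT, and few points are filled in SWP.

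Of 12 other folate cycle enzymes, 4 were called lower and none higher in MYC MUT against MYC WT, beside 10.1% and 11.3% of all tested genes. None was called either way in SWP, where 1 was lower and 0 higher at an unadjusted p under 0.05 and edgeR and DESeq2 called none. MTHFD1L, the mitochondrial enzyme that releases formate, had 11441, 14330 and 13852 normalized counts in MYC WT, 4565, 4593 and 5351 in MYC MUT and 11135, 11546 and 12892 in SWP. MYC MUT stood far below both, with a log2 fold change of -1.45 ± 0.10 (SE; adjusted p = 2.34e-06, limma). The 116 tested genes within 10 Mb of MTHFD1L had a median log2 difference of -0.66 in MYC MUT and -0.05 in SWP, and the part of this in the fall of MTHFD1L was not tested. ALDH1L1, the cytosolic relative of ALDH1L2, was low, with 78.9, 128 and 119 normalized counts in MYC WT, 19.4, 36.9 and 24.4 in MYC MUT and 90.5, 219 and 183 in SWP. It differed by -1.99 ± 0.34 in log2 in MYC MUT (adjusted p = 0.000864) and was not called in SWP, where its log2 fold change was 0.53. DHFR2 and GGH were the other 2 called lower. In MYC MUT against SWP, limma called 2 of the 12 lower (ALDH1L1 and MTHFD1L) and 1 higher (FTCD). These stand beside 8.31% and 12.3% of all tested genes, and edgeR and DESeq2 each called 3 lower and 1 higher.

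Of 7 tested folate and mitochondrial serine carriers, 1 was called lower and 1 higher in MYC MUT, beside 10.1% and 11.3% of all tested genes. SFXN2 was lower (-0.60, adjusted p = 0.000277, limma). FOLR1, a folate receptor, was higher (1.81, adjusted p = 0.000587), from 7.86 to 14.4 normalized counts in MYC WT to 38.8 to 48.6 in MYC MUT. SFXN1, known to carry serine into mitochondria, had a log2 fold change of 0.20 (adjusted p = 0.0392), below the size for a call. In MYC MUT against SWP, 1 of the 7 was called lower (SFXN2) and 2 higher (FOLR1 and SFXN3), beside 8.31% and 12.3% of all tested genes. None of the 7 was called in SWP, nor was any of 3 tested members of the glycine cleavage system in MYC MUT or SWP; edgeR and DESeq2 gave the same counts of 0, and at an unadjusted p under 0.05 limma had 1 of the 7 lower in SWP and, of the 3, 1 lower and 1 higher in each line.

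Of 11 tested genes of the methionine cycle and transsulfuration, 3 were called lower and 1 higher in MYC MUT, beside 10.1% and 11.3% of all tested genes. The lower ones were CTH (-1.91, adjusted p = 0.0106, limma), which makes cysteine, CBS (-0.66, adjusted p = 0.000705), which joins serine to homocysteine, and AHCYL1. MAT1A was called higher (1.119), from 20.2 to 30.8 normalized counts in MYC WT to 51.8 to 59.3. In SWP, CBS was lower as well (-0.81, adjusted p = 0.000741) and MAT1A was lower (-1.66). CBS had 1026, 1152 and 1212 normalized counts in MYC WT, 632, 706 and 818 in MYC MUT and 660, 614 and 655 in SWP, so that both edited lines were below MYC WT, as for ALDH1L2. In MYC MUT against SWP, 1 of the 11 was called lower (CTH) and 1 higher (MAT1A), beside 8.31% and 12.3% of all tested genes.

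Of 11 tested other amino acid carriers, 7 were called lower in MYC MUT and 1 higher, beside 10.1% and 11.3% of all tested genes. In SWP none was called by limma, edgeR or DESeq2 (1 lower and 2 higher at an unadjusted p under 0.05). The glycine carrier SLC6A9 (-2.39, adjusted p = 0.00189, limma) and the cystine carrier SLC7A11 (-1.62, adjusted p = 0.0129) fell most, and SLC1A1, SLC1A3, SLC38A2, SLC7A1 and SLC7A5 were the others. SLC7A11 had 3330, 10109 and 8521 normalized counts in MYC WT, 1270, 2369 and 3277 in MYC MUT and 3343, 5925 and 7225 in SWP, with replicate 1 the lowest in each line. SLC1A2 was called higher (2.96), from at most 3.08 normalized counts in MYC WT to 21.3 to 35.0 in MYC MUT. In MYC MUT against SWP, limma called 6 of the 11 lower and 1 higher (SLC1A2), beside 8.31% and 12.3% of all tested genes. The lower ones were SLC1A1, SLC3A2, SLC6A9, SLC7A1, SLC7A11 and SLC7A5, so SLC1A3 and SLC38A2 were not called there.

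Among 12 tested genes that consume or incorporate serine, 2 were called lower and 1 higher in MYC MUT, beside 10.1% and 11.3% of all tested genes. SARS1, the seryl-tRNA synthetase (-0.98, adjusted p = 0.000681, limma), and PTDSS1, which makes phosphatidylserine (-0.81, adjusted p = 1.11e-05), were lower. SDSL, a serine dehydratase relative, was higher (0.92). The tested genes within 10 Mb of PTDSS1 had a median log2 difference of -0.50, and its part was not tested. Of 12 glycolytic enzymes that supply 3-phosphoglycerate or compete for it, PGK1 was called lower in MYC MUT (-0.51, adjusted p = 0.000284) and ALDOC lower in SWP (-1.72, adjusted p = 1.56e-05), and none higher. None of 6 purine synthesis enzymes was called in MYC MUT or SWP, and their log2 fold changes in MYC MUT ran from -0.32 to -0.02. edgeR and DESeq2 called none of the purine enzymes either, and at an unadjusted p under 0.05 2 of the 6 were lower in each line. By edgeR the change of PGK1 was too small for a call. In SWP none of the genes that consume serine was called by limma or edgeR, with 4 lower at an unadjusted p under 0.05, and DESeq2 called SERINC2 lower. With the replicate block, the comparison of SWP with MYC WT added CHAC1, DDIT3, SLC6A9 and SERINC2 to the genes called lower in these lists, and none called higher. In MYC MUT against SWP, 2 of the 12 genes that consume serine were called lower (SARS1 and PTDSS1) and 2 higher (SDSL and SERINC2). PGK1 was called lower and ALDOC higher there, and no purine enzyme was called, beside 8.31% and 12.3% of all tested genes.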

How the data were processed

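Per the labels and methods, poly(A)-selected, strand-specific libraries were aligned by the authors to hg38 with bwa mem. The mapped reads were deduplicated with Picard and counted per gene with a GENCODE annotation. The counting tool and its use of strand are not given in the sources used here. The deposited values are a signal that is never negative: normalized counts, that is, reads per gene that the authors scaled by DESeq2 size factors. The aligner is not a spliced one, so that a read across an exon junction may be cut short, lost or placed on a processed pseudogene.

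Dividing by the step of each column recovered whole reads for 100% of values (tolerance 1e-06). These served edgeR 4.0.16 and DESeq2 1.42.0 only as alternatives. Differences were tested with limma 3.58.1 (R 4.3.3, trended prior) on log2(normalized count + 1). All 9 libraries entered 1 fit, low genes with a mean below 10 were left out, and p-values were Benjamini-Hochberg adjusted over the remaining 20884 genes. A fold change is on that scale and understates changes of low genes. A gene was called past both an adjusted p of 0.05 and a log2 fold change of 0.5. The fits were also run on simulated counts without any effect shared by same-numbered libraries, so that run does not test them under the replicate pattern above. Groups and replicate numbers came from the labels. Same-numbered libraries deviated together to unlike degrees, and a block was given as an alternative. The r of deviations from the line mean was 0.555, 0.403 and 0.102 between MYC WT and SWP. It was 0.333, 0.241 and 0.232 between MYC MUT and SWP, and 0.328, 0.146 and 0.0490 between MYC WT and MYC MUT. Pairs with unlike numbers reached at most 0.263 (MYC WT 2 with SWP 3), 0.0236 (MYC MUT 2 with SWP 3) and 0.154 (MYC WT 3 with MYC MUT 2).

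The 10 genes and the lists of surrounding genes were chosen with earlier results of these data known. Named from each list were MYC and the 2 largest rises and falls among genes called in MYC MUT or SWP against MYC WT; others (such as ASNS, CHAC1, SFXN1, SERINC2, DDIT3, MYCN, ATF5, VLDLR, AHCYL1, DHFR2 and GGH) were added after their values were seen. For PHGDH, PSAT1 and PSPH the 5 genes with the highest r were named. Levels between genes were divided by the length of the canonical transcript in GENCODE. Figures were drawn with matplotlib 3.10.9. Assays of the series other than RNA-seq were not used here.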

Additional observations from a re-analysis of the deposited data

Results flagged for a closer look

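For 3 of the 10 genes the departure from MYC WT differed between the 2 edited lines by a test of the difference itself, MYC MUT against SWP in the limma fit. PHGDH differed by -0.94 and SLC1A5 by -0.96 in log2, both being at about the level of MYC WT in SWP and lower in MYC MUT. SHMT1 differed by 0.53, with all MYC MUT libraries above and all SWP libraries below those of MYC WT.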

How the results depend on the processing

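Under 22 alternative fits for each comparison the number of called genes among the 10 was within 1.5 times the reported number except as follows. In MYC MUT against MYC WT (6 called), a log2 fold change beyond 1 left 2 (PHGDH and ALDH1L2); leaving out 1 library gave 5 (MYC WT replicate 2 or 3, or MYC MUT replicate 1) to 7 (MYC WT replicate 1). In SWP against MYC WT (1 called), a fit with no trend gave 0, DESeq2 2, the replicate block 2, the block with equal totals 2, and replicates 1 left out 2; leaving out 1 library gave 0 (MYC WT replicate 2 or 3) to 3 (MYC WT replicate 1). In MYC MUT against SWP (3 called), a fit of these 2 lines alone gave 5, the replicate block 5, the block with equal totals 5, replicates 1 left out 5, and a log2 fold change beyond 1 left 0; leaving out 1 library gave 3 to 5 (SWP replicate 1). edgeR and DESeq2 also gave 3 there, with PSPH in place of SHMT1. Between MYC WT and MYC MUT the block gave 6. Same-numbered libraries of these lines deviated from their line means with r of 0.328, 0.146 and 0.0490. Among the surrounding lists the block added ASNS, CHAC1 and VLDLR as lower and MYCN and ATF5 as higher. The cause of these differences was not tested. For single genes of the 10, 624 of 660 alternative values kept their call, 16 lost it, 20 gained it and 0 reversed a called direction. Scaling to equal totals moved the split of all called genes in MYC MUT against MYC WT from 2365 higher and 2111 lower to 2874 and 1600, and in SWP against MYC WT from 450 higher and 622 lower to 556 and 525. With 3 libraries in each line, a change of SLC1A4 or SHMT2 smaller than its interval was not detectable in the main fit. In MYC MUT against MYC WT, the replicate block gave SHMT2 a log2 fold change of -0.38 with an adjusted p of 0.000559 (limma). With replicates 1 left out SLC1A4 had -0.31 and an adjusted p of 0.0397, whereas with the block its adjusted p was 0.995. Neither size was enough for a call.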
